A study of Rattus norvegicus with 12 samples.

Results

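The genes described here encode collagens, laminins, nidogens, fibronectin and Sparc, together with the enzymes and the chaperone that make collagen ready for use, measured in jejunal mucosa of high Fe and low Fe rats. They were picked out by gene symbol. Every probe set of the Affymetrix rat arrays 230A and 230B was taken whose only symbol in the platform annotation names a collagen chain, a laminin chain, a lysyl hydroxylase (Plod) or a lysyl oxidase (Lox and its relatives), or is P4ha2, P4ha3, P4hb, Serpinh1, Fn1, Sparc, Nid1 or Nid2. This gave 90 of 31142 probe sets, for 62 of 13810 named genes: 67 of 15866 on 230A (49 genes) and 23 of 15276 on 230B (20 genes), with 7 genes on both. RNA came from scrapings of the mucosa of the jejunum, the middle stretch of the small intestine, and all samples carry a week number of 12 and the keywords iron-deficiency and anemia. The high Fe and low Fe groups had 3 samples each, and every sample has a 230A and a 230B array, for 12 arrays in all. Strain, sex, diet and what the week number counts are not given in the labels, nor is it stated whether a group's 3 samples are 3 different rats. The p-values therefore reflect sample-to-sample scatter that may be technical in part or in full.

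Collagens are helical proteins whose chains are hydroxylated on prolines and lysines inside the endoplasmic reticulum, secreted, and then joined by cross-links outside the cell. The hydroxylases need ferrous iron, oxygen and 2-oxoglutarate, and the lysyl oxidases that start the cross-links need copper. In the gut wall, fibroblasts and muscle cells make the fibril-forming collagens of the connective tissue under the epithelium, while laminins, collagen IV and nidogens form the basement membrane on which the epithelial cells sit.

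Epithelial cells were detected as the label of a mucosal scrape has it, with all 9 enterocyte markers on 230A above the filter on low signals and summed signals from 97831 to 162348.6. Of the 12 fibroblast markers on 230A, 5 were above the filter, and of the 9 endothelial markers 0. The low Fe replicate 3 stood apart from the other samples in the ratio of the 5′ to the 3′ control probe sets for beta-actin, a sign of RNA integrity, at 0.0539 against 0.591 to 0.836 on 230A and 0.0473 against 0.499 to 0.896 on 230B. By the same ratio for GAPDH this sample did not stand apart. It gave 0.794 against 0.807 to 0.922 on 230A and 0.873 against 0.821 to 0.939 on 230B. Arrays of a type correlated at 0.962 to 0.979 on 230A and 0.897 to 0.94 on 230B, on the log2 scale. Counts and calls that turn on low Fe replicate 3 are given with and without it.

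Many of these probe sets gave dim signals on 230A. Probe sets in the lowest 40% by mean log2 value were not tested. This filter ranks signals, and a place above it does not show that a gene was detected. The boundary was 106 for 230A signals and 182.9 for 230B signals, and 29 of 67 member probe sets on 230A (43.3%, against 60% of all probe sets) and 13 of 23 on 230B (56.5%) lay above it. That left 37 of the 62 genes tested on at least 1 array type, only Col6a3 on both, and 25 genes on neither. The tested member probe sets on 230A had a median signal of 197.2, against 431.1 over all tested probe sets, and the untested ones ran from 1.5 to 105.1. On 230B the medians were closer, at 481.5 and 510.1. In bulk tissue, fewer cells of a type and less RNA per cell cannot be told apart.

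None of the tested members passed the test between low Fe and high Fe. The test was limma on log2(signal + 16) with Benjamini-Hochberg adjustment over all tested probe sets of an array type and a threshold of adjusted p 0.05. On 230A, 0 of 29 member probe sets passed, where 9 of 9519 of all probe sets did (0.0945%), and the smallest adjusted p of a member was 0.650, that of Col5a1. On 230B, 0 of 13 passed, where 0 of 9165 did (0%), and the smallest adjusted p was 0.504, that of Lama5. At an unadjusted limma p under 0.05, 4 of the 29 on 230A were higher in low Fe (Col5a1, Col1a2, Nid1 and Plod1; 13.8%, against 3.17% of all tested probe sets) and 1 was lower (Col15a1; 3.45%, against 3.51%). On 230B the counts were 0 and 0, against 4.94% higher and 5.23% lower over all tested probe sets. Without low Fe replicate 3 the count of 4 on 230A became 1, and without low Fe replicate 2 it became 2. The 1 lower gene became 0 when replicate 2 or 3 of either group was left out, and 2 when the first low Fe sample was.

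The median log2 difference, low Fe minus high Fe, was 0.05 over the 26 tested member genes on 230A and -0.06 over the 12 on 230B, beside -0.0017 and 0.0092 over all tested named genes. On 230A, 17 of 29 member probe sets (58.6%) lay above 0, against 46.9% of all tested probe sets, and on 230B 4 of 13 did (30.8%), against 45%. Of the member probe sets, 27 of 29 on 230A and 10 of 13 on 230B had a 95% interval of the log2 difference wholly between -1 and 1 on the log2(signal + 16) scale, which understates the change of dim genes. The exceptions were Col5a1 and Sparc on 230A and Lama4, Lama5 and the less bright P4ha3 probe set on 230B. With arrays scaled to their hybridization controls instead, all named genes had a median of 0.36 on 230A and 0.19 on 230B and the members 0.39 and 0.15, and several members near 0 then lay above it. The standard errors were a little wider than over all tested named genes, with a median of 0.19 against 0.17 on 230A and 0.25 against 0.22 on 230B.

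**Figure D1:**
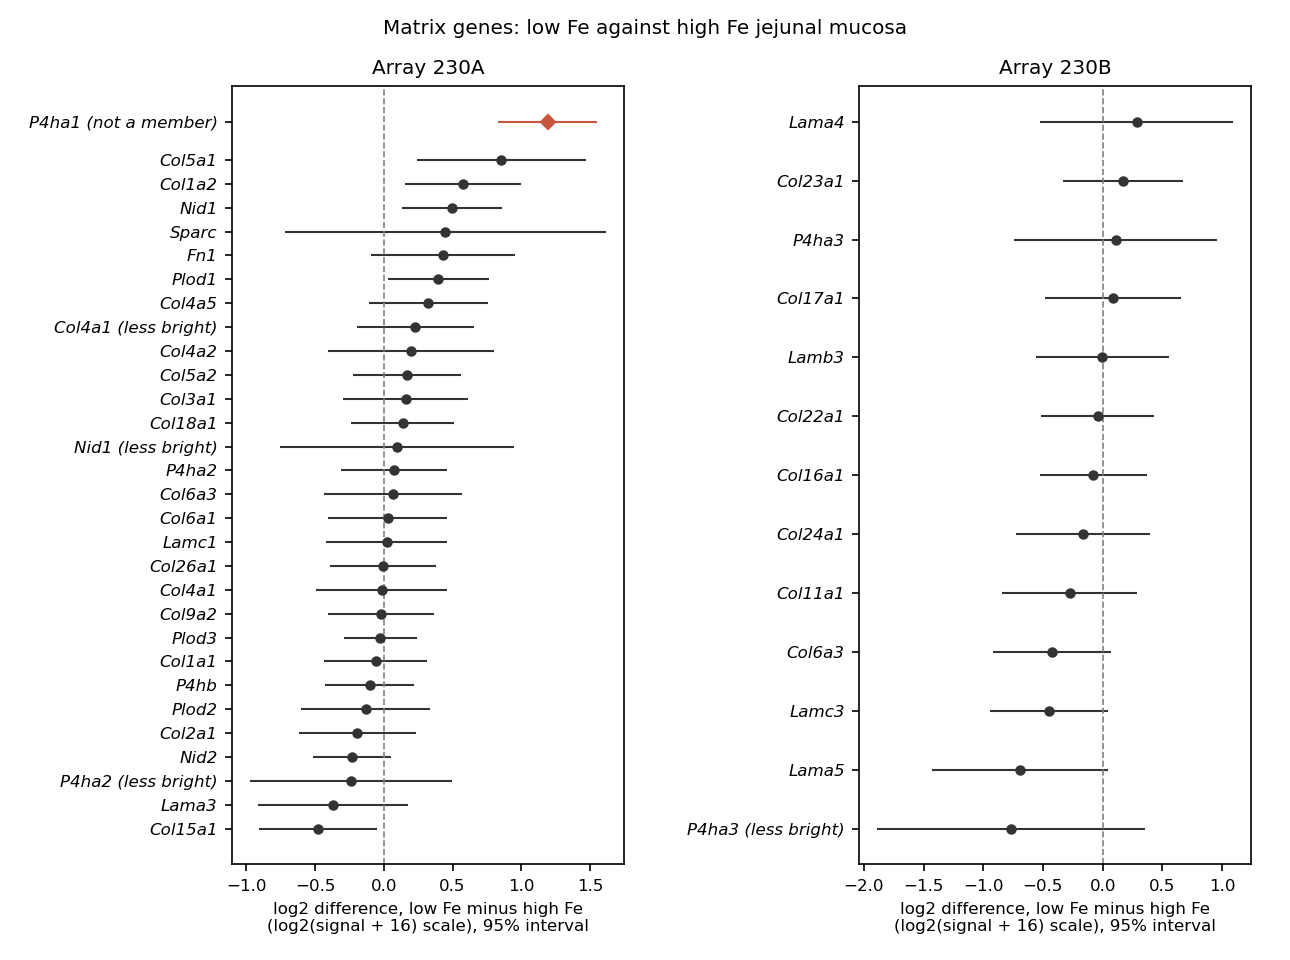
Log2 difference between low Fe and high Fe (x axis, log2(signal + 16) scale) with its 95% interval from limma for each tested member probe set on 230A (left) and 230B (right), 3 samples a group, and for P4ha1 in red for comparison. The members on 230A lie between -0.48 (Col15a1) and 0.86 (Col5a1), to the left of P4ha1 at 1.19.

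The enzymes that hydroxylate collagen showed no shared shift, although P4ha1, a catalytic subunit of prolyl 4-hydroxylase that is not among the genes chosen here, was higher in low Fe. P4ha1 signals were 165, 162 and 190.1 in high Fe and 358, 431 and 457 in low Fe, and its log2 difference was 1.19 ± 0.16 (SE; limma, adjusted p = 0.0422). The groups lay far apart, and the log2 difference stayed between 1.12 and 1.29 whichever array was left out. The call was lost when any array other than low Fe replicate 1 was left out: the limma adjusted p was 0.111 without high Fe replicate 1, 0.181 without 2, 0.112 without 3, and 0.311 and 0.218 without low Fe replicates 2 and 3. It was also lost without a filter on low signals (0.125) and with the replicate number as a block (0.210). P4ha2, the alternative catalytic subunit, gave 124, 154 and 137 in high Fe and 133, 154 and 151 in low Fe. Its groups overlapped almost fully, and the log2 difference was 0.07 ± 0.17, with a 95% interval from -0.31 to 0.46. The less bright P4ha2 probe set gave 118, 200.2 and 137 against 112, 77.7 and 208, with a log2 difference of -0.24 ± 0.32. P4hb, the protein disulfide isomerase that is the other subunit of the enzyme and also a general folding catalyst, was the brightest member by far, at 10720.3, 15012 and 13699 in high Fe and 13201, 11658 and 11606 in low Fe. The P4hb groups overlapped too, at a log2 difference of -0.10 ± 0.14. P4ha3, a further catalytic subunit, was measured on 230B by a pair of probe sets whose log2 differences had opposite signs, 0.11 ± 0.37 and -0.77 ± 0.49. The brighter gave 245, 142 and 389.5 in high Fe and 258, 313 and 216 in low Fe, all low Fe samples within the high Fe range.

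None of the lysyl hydroxylases passed, and among them Plod1 lay furthest from 0. Plod1, the lysyl hydroxylase of the helical stretch of collagen chains, gave 286, 365 and 289.8 in high Fe and 453, 360.0 and 441 in low Fe. A pair of low Fe samples lay above all high Fe samples, while low Fe replicate 2 lay just under high Fe replicate 2, and the log2 difference of 0.40 ± 0.16 did not pass (limma, adjusted p = 0.730). Plod2, which hydroxylates the ends of collagen chains, gave 127.5, 120.3 and 167 against 142, 135 and 97.7. Its log2 difference was -0.13 ± 0.21, with a 95% interval from -0.60 to 0.34. Plod3, which also attaches sugars to hydroxylysine, was the steadiest of all, at 792, 794 and 837 in high Fe and 792, 775 and 813 in low Fe. Its log2 difference of -0.02 ± 0.12 had a 95% interval from -0.29 to 0.24.

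The difference between P4ha1 and its relatives was compared within samples. The log2 value of P4ha1 minus that of P4ha2 was 0.37, 0.07 and 0.43 in high Fe and 1.33, 1.39 and 1.50 in low Fe, a shift of 1.12. The same shift was 1.29 against P4hb, 0.80 against Plod1, 1.32 against Plod2 and 1.22 against Plod3. The groups did not overlap in any of these 5 comparisons, and each gave p = 0.1 in a two-sided exact permutation test (0.1 after adjustment over the 5), the smallest p that the 20 arrangements of 3 against 3 samples allow. P4ha1 was known to differ when these comparisons were chosen, and P4ha1 is the common term of all 5, so they are not independent of each other.

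**Figure D2:**
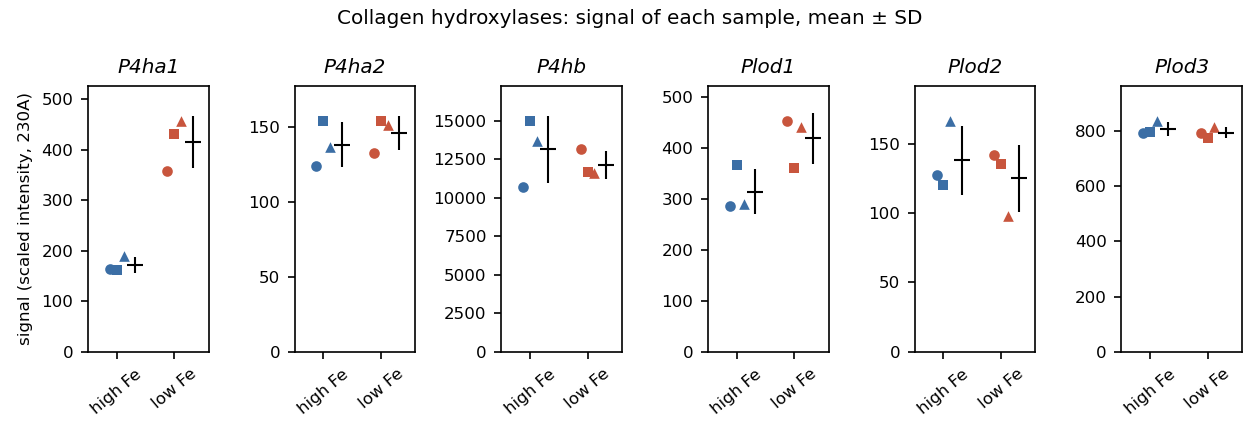
Signal (scaled intensity, 230A, linear axes from 0) of P4ha1 and 5 other hydroxylase subunits and enzymes in each high Fe (blue) and low Fe (red) sample, with circles, squares and triangles for replicates 1, 2 and 3 and the mean ± SD (n = 3) beside them. P4ha1 separates the groups, Plod1 nearly so, and the others overlap.

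These hydroxylase genes are shown by the sequence just before their start, since P4ha1, P4ha2 and Plod2 are textbook targets of the oxygen-sensing factor HIF, which binds at a core of ACGTG or GCGTG. Each sequence is the 250 bases before the gene's start in RefSeq's annotation of GRCr8, 5′ to 3′ on the gene's strand, and capitals mark the core on either strand (CACGT and CACGC on the other strand).
P4ha1: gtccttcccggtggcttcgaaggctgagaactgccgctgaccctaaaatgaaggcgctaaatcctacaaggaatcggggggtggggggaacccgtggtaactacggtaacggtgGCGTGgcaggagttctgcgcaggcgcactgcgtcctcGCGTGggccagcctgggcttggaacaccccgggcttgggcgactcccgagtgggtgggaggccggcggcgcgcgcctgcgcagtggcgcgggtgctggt
P4ha2: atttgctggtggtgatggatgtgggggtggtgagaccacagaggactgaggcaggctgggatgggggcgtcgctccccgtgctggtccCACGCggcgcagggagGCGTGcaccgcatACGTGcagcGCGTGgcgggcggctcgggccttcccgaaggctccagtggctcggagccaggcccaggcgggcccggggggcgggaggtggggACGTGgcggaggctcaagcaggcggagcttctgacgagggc
Plod1: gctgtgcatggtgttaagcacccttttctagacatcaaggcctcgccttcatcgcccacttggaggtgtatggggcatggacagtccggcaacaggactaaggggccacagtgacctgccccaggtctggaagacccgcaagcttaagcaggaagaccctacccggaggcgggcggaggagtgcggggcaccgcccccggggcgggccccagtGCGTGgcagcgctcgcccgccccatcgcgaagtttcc
Plod2: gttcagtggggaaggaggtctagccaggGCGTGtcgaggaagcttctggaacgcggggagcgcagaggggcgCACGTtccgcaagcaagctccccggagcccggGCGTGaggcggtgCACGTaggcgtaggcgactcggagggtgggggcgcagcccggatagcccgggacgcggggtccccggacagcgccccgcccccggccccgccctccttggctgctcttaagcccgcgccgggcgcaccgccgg
The P4ha1 window at chr20:27844796-27845045 on the plus strand held 2 matches, a number or more found in 17.7% of all genes. The P4ha2 window at chr10:38743644-38743893, plus strand, held 5, which 1.2% of genes reach, and the Plod2 window at chr8:101964068-101964317, plus strand, held 4, which 2.8% reach. The Plod1 window at chr5:163650738-163650987, minus strand, held 1. Whether the number of matches bears on the differences in signal was not tested. Among the members, 49 of 62 genes had a window and 23 of these (46.9%) held at least 1 match, against 39.6% of 27457 genes. A match is a run of letters and does not show that a factor binds there.

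The cross-linking enzymes and the collagen chaperone lay below the filter and were not tested. Lox, the first lysyl oxidase, gave 49.7, 57.3 and 52.7 in high Fe and 51.1, 71.6 and 31.2 in low Fe by its brighter probe set. The less bright Lox probe set gave 33.1, 43.4 and 29.1 against 28.3, 10.1 and 28, lower in low Fe without overlap. Loxl1 stayed between 11.7 and 16.5 in all 6 samples. Loxl2, by its brighter probe set on 230B, gave 130.2, 184 and 127 against 169.8, 128 and 178, so its groups overlapped. Loxl3 gave 77.5, 65.4 and 239 in high Fe and 232, 358 and 316 in low Fe on 230B, where high Fe replicate 3 lay within the low Fe range. Serpinh1, the Hsp47 chaperone that holds procollagen in the endoplasmic reticulum, gave 58.7, 115 and 81.3 against 138, 118 and 84.6.

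Among the tested fibril-forming collagens, Col5a1 and Col1a2 were higher in every low Fe sample than in any high Fe sample, and Col1a1 and Col3a1 were not. Of the 10 tested genes on 230A for collagens outside the basement membrane, 6 lay above 0 and 4 below, with a median log2 difference of 0.05. Counted as such is every collagen other than collagen IV, Col15a1 and Col18a1, which on 230B takes in Col17a1 of hemidesmosomes. Col5a1, a chain of collagen V, which starts collagen I fibrils and limits their width, gave 179.5, 105 and 171 in high Fe and 190.0, 347 and 336 in low Fe. Low Fe replicate 1 lay just above the high Fe samples and the other low Fe samples far above them. The log2 difference was 0.86 ± 0.27, with a 95% interval from 0.24 to 1.47 (limma, adjusted p = 0.650). The less bright Col5a1 probe set, not tested, gave 42.3, 20.5 and 21.3 against 31.9, 92.6 and 17.7, with overlap. Col5a2, the partner chain, gave 98.1, 111 and 111 against 110.1, 134 and 121, at 0.17 ± 0.17. Its less bright probe set, not tested, gave 67.8, 126.3 and 68.1 against 80.2, 78.7 and 81.3, with overlap. Col5a3, far below the filter and not tested, gave 16.4, 22.4 and 15.5 against 9.1, 7.7 and 7.3, lower in low Fe without overlap.

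Col1a2, the α2 chain of collagen I, gave 79.6, 91.6 and 94.7 in high Fe and 116, 154 and 151 in low Fe, at 0.57 ± 0.19 (limma, adjusted p = 0.653). Without low Fe replicate 2 or 3, Col1a2 was below the filter and was not tested. Its less bright probe set gave 43.9, 44.6 and 104 against 68.4, 109 and 46.8, again with overlap. Col1a1, the α1 chain that joins Col1a2 in the same molecule, gave 239, 235 and 250.1 against 222, 199 and 277, at -0.06 ± 0.17, and low Fe samples lay on both sides of the high Fe ones. Col3a1, the collagen of fine reticular fibres, gave 218, 251 and 315 against 287, 361 and 237, at 0.16 ± 0.20, or 0.0127 when replicate 2 of low Fe was left out and 0.30 when replicate 3 was. The difference between the chains of collagen I was not tested.

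The groups without overlap can be set against all genes. On 230A, 4 of 29 member probe sets were higher in all low Fe samples (Col5a1, Col1a2, Nid1 and Fn1; 13.8%, against 5.61% of all tested probe sets) and 1 was lower (Nid2; 3.45%, against 6.18%). On 230B, 0 of 13 were higher (7.11% of all) and 1 was lower (Lama5; 7.69%, against 10.3%). Without high Fe replicate 3 the 4 became 7, and the lower count on 230A became 4 without replicate 1 of either group or without the third low Fe sample. Shares over all probe sets were not computed with an array left out. With fewer samples, groups lie apart more often for any gene, so these changes in count are not a result about the members. Members that share a gene or a fibril are not independent, and each of these counts is small. Members were also tested only where their mean was bright enough, so that these shares are a description and support no call.

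Markers of muscle and connective tissue cells are given beside these genes. Of the 11 smooth muscle markers on 230A, 6 were below the filter, and the 5 tested lay above 0 with a median log2 difference of 0.56, none of them passing the limma test. The summed signal of the 11 ran from 3658.9 to 4385.8 in high Fe and from 4684 to 6185.1 in low Fe, without overlap. Mylk, the myosin light chain kinase, made up most of this sum, with means of 2753.7 ± 275.5 in high Fe and 3711.3 ± 311.7 in low Fe (SD, n = 3), while its probe set on 230B lay at a log2 difference of 0.09 ± 0.42. On 230B the 6 markers present summed to between 1342.7 and 1911.5 in high Fe and 1457.3 and 1770.1 in low Fe, with 3 tested, 2 of them above 0. Fibroblast markers summed to between 1068.2 and 1350.5 in high Fe and 1171.3 and 1373.2 in low Fe on 230A, with overlap and with 3 of 5 tested genes above 0. The 2 fibroblast markers on 230B, both below the filter, summed to between 163.5 and 253 in high Fe and 149.1 and 152.9 in low Fe, without overlap. Endothelial markers summed to between 583.7 and 619 in high Fe and 443.5 and 679.8 in low Fe on 230A, and to between 617.1 and 786.1 and 500 and 677.9 on 230B, where both tested genes lay below 0. The part of muscle tissue in the differences of Col5a1, Col1a2, Nid1, Fn1 and Plod1 was not tested.

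None of the remaining tested collagens outside the basement membrane passed, and by their tested probe sets the groups overlapped. Col6a1, a chain of the beaded filaments of collagen VI, gave 159, 218 and 209 in high Fe and 161.5, 221 and 216 in low Fe, so that the groups were nearly the same, at 0.03 ± 0.19. Col6a3, another chain of these filaments and the one gene tested on both arrays, gave 131, 182 and 216 against 151, 225 and 177 on 230A, at 0.07 ± 0.22. On 230B it gave 487, 568.5 and 599 against 525, 351 and 358, at -0.43 ± 0.22 (limma, adjusted p = 0.533). The probe sets differed in sign, and low Fe replicate 2 was the highest low Fe sample on 230A and the lowest on 230B. Col2a1, the main collagen of cartilage, gave 153, 210.3 and 189 against 187, 139 and 151, at -0.19 ± 0.19, and Col9a2 and Col26a1 lay within 0.03 of 0. The less bright Col2a1 probe set on 230A, not tested, gave 17.7, 10.3 and 10.7 against 3, 7.2 and 7.6, without overlap. The Col2a1 probe set on 230B, below the filter, gave 203.7, 251.4 and 188.2 against 97.6, 180.7 and 197.2, with overlap.

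On 230B, 7 genes of this kind were tested, of which 2 lay above 0 and 5 below, with a median of -0.08. Col11a1, a minor fibril-forming chain, gave 618, 444 and 340.2 in high Fe and 343, 351 and 427 in low Fe, at -0.28 ± 0.25. Both Col11a1 probe sets on 230A were far below the filter, with mean signals of 3.5 and 1.5 over all samples. Col16a1, a collagen that associates with fibrils, gave 1419, 1271 and 998 against 1072, 1353 and 1054, at -0.08 ± 0.20. On 230B the groups overlapped for Col11a1 and for Col16a1. Col17a1, the membrane-spanning collagen of hemidesmosomes, gave 1072, 975 and 577 against 955, 779 and 976, at 0.09 ± 0.25. Col23a1, another membrane collagen, gave 480.1, 644 and 768 against 593, 726 and 788, at 0.17 ± 0.22, and Col24a1 gave 396, 393 and 332 against 262, 447 and 308, at -0.17 ± 0.25. Col22a1 lay at -0.04 ± 0.21. None of these collagens had groups apart.

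**Figure D3:**
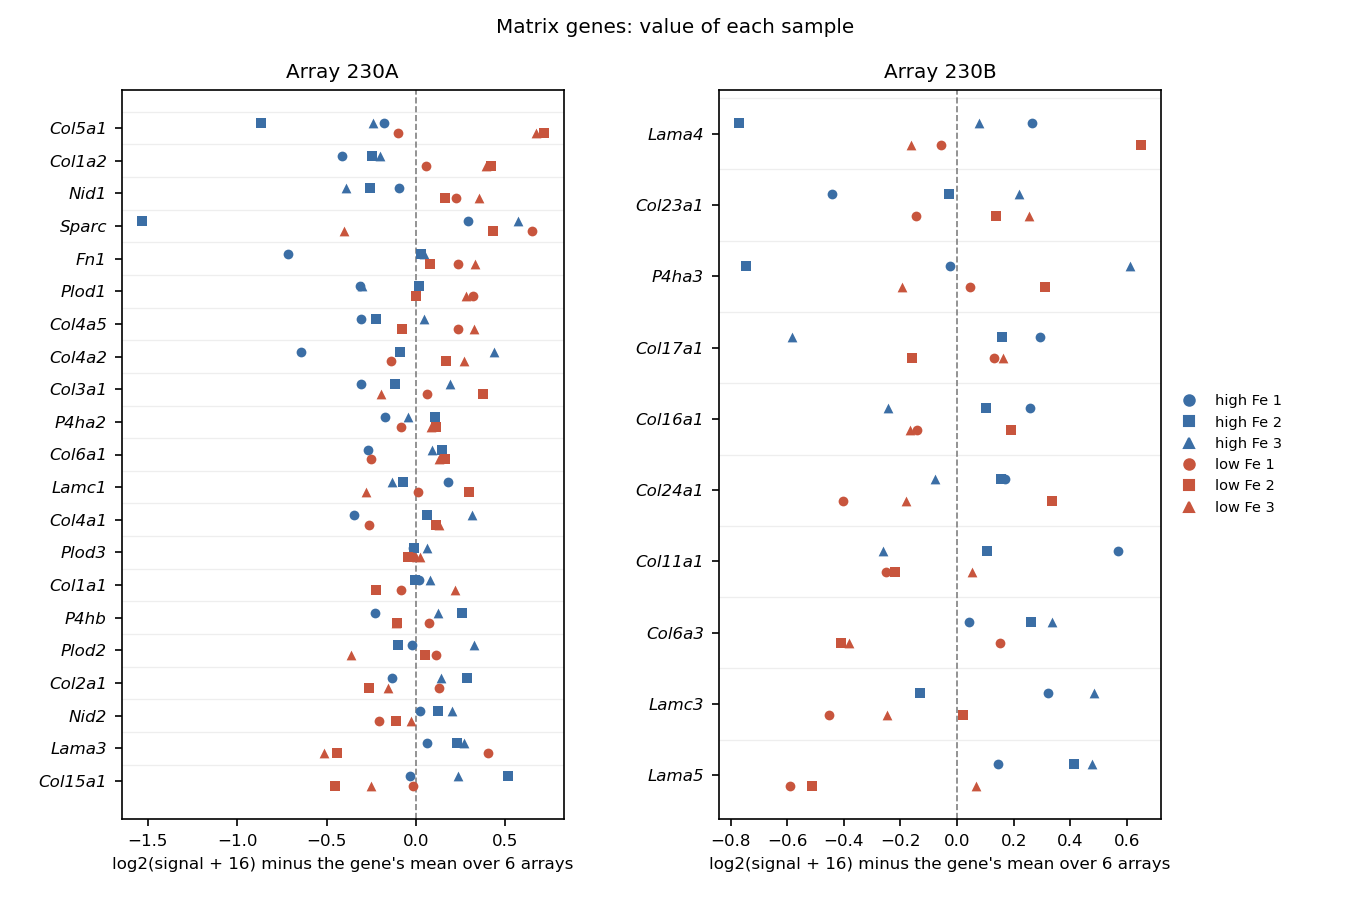
Value of each sample for the members described one by one, as log2(signal + 16) minus the gene's mean over the 6 arrays of the type (x axis), on 230A (left) and 230B (right); blue is high Fe, red is low Fe, and circles, squares and triangles are replicates 1, 2 and 3. Low Fe samples all lie to the right of high Fe samples for Col5a1, Col1a2, Nid1 and Fn1 and all to the left for Nid2 and Lama5.

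In the basement membrane, the nidogens lay on opposite sides of 0 and collagen IV did not separate the groups. On 230A, 9 genes of this kind were tested, of which 5 lay above 0 and 4 below, with a median of 0.02. Nid1, which links the laminin network to the collagen IV network, gave 183, 162 and 146 in high Fe and 232, 222 and 255 in low Fe, without overlap, at 0.49 ± 0.16 (limma, adjusted p = 0.653). Its less bright probe set, also tested, gave 85.0, 139 and 118 against 55.5, 179 and 168, at 0.10 ± 0.37, with overlap. Nid2, its relative with the same binding partners, gave 983, 1053 and 1116 against 834, 893 and 948, again without overlap but lower in low Fe, at -0.23 ± 0.12 (limma, adjusted p = 0.774), or 0.14 under the scaling to hybridization controls that moved all genes by 0.36. The difference between the nidogens was not tested.

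Collagen IV, the sheet-forming collagen of every basement membrane, was followed through its main chains. Col4a1 gave 171, 233 and 280.1 in high Fe and 182.5, 242 and 245 in low Fe, at -0.02 ± 0.21, and its less bright probe set, also tested, was at 0.23 ± 0.19. Col4a2 gave 124, 189 and 279 against 182, 229 and 247, at 0.20 ± 0.27. By these probe sets, the 6 samples fell in the same order for both genes, with replicate 1 of high Fe as the lowest, then replicate 1 of low Fe, replicate 2 of high Fe, replicates 2 and 3 of low Fe, and replicate 3 of high Fe as the highest. This order crosses the groups, and the genes share the arrays on which it was read. The less bright Col4a1 probe set gave 128, 172.5 and 185 against 176, 218 and 179.8, and did not keep the order, since low Fe replicate 2 was its highest sample. Col4a5, a chain of other collagen IV molecules, gave 105, 113 and 139 against 161, 126 and 172, at 0.32 ± 0.19, with overlap.

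**Figure D4:**
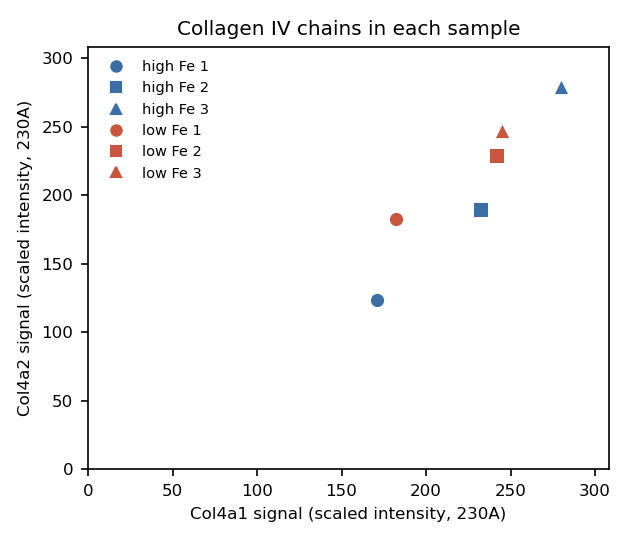
Signal of Col4a1 (x axis) and Col4a2 (y axis) in each sample on 230A (scaled intensity, linear axes from 0), blue for high Fe and red for low Fe, with circles, squares and triangles for replicates 1, 2 and 3. By their brightest probe sets, both genes put the 6 samples in the same order, with high Fe replicate 1 lowest and high Fe replicate 3 highest, and the groups overlap.

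Col4a1 and Col4a2 lie head to head, and the whole stretch between their starts is shown because both genes are read outward from it. In GRCr8 it is 76 bases long, at chr16:84885521-84885596, with the Col4a1 start at 84885597 on the plus strand and the Col4a2 start at 84885520 on the minus strand. The plus strand is printed, and capitals mark the GC box, GGGCGG on either strand.
Col4a2 to Col4a1: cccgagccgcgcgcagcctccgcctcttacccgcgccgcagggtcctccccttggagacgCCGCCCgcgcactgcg
It held 1 GC box, a motif found in the last 76 bases before the start of 20.2% of genes, and 0 matches to the HIF core.

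Col15a1 and Col18a1 encode related collagens of the basement membrane zone that carry long sugar chains. Col15a1 gave 320.0, 476 and 389 in high Fe and 324, 235 and 273 in low Fe. Low Fe replicate 1 lay just above high Fe replicate 1, so the groups overlapped, and the log2 difference was -0.48 ± 0.19 (limma, adjusted p = 0.720). The Col15a1 probe set on 230B, below the filter, gave 64.4, 69.3 and 68.7 against 62.0, 127 and 112. Col18a1, the source of endostatin, gave 181, 216 and 220.4 against 209, 214 and 261, at 0.14 ± 0.17.

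Of the 6 laminin genes tested, 4 lay below 0 and none passed. Lama3, the α chain of the laminin of epithelial anchoring sites, gave 357, 402 and 414 in high Fe and 456, 246 and 234 in low Fe on 230A. Low Fe replicate 1 was the highest of all samples and the other low Fe samples were the lowest, at a log2 difference of -0.37 ± 0.24. Leaving out replicate 1 of low Fe gave -0.67, and leaving out replicate 3 gave -0.21. Lamb3, the β chain of the same laminin, lay at -0.0034 ± 0.24 on 230B. Lama5, an α chain common in adult gut basement membrane, gave 229.8, 280.1 and 293 in high Fe and 132, 139.8 and 217 in low Fe on 230B, without overlap, at -0.69 ± 0.32 (limma, adjusted p = 0.504). Both Lama5 probe sets on 230A were below the filter. Lamc3, a γ chain, gave 1185.5, 861 and 1327.5 against 687, 959.8 and 792.5, at -0.45 ± 0.22 (limma, adjusted p = 0.519), with overlap through low Fe replicate 2. Lama4, an α chain of vessel and muscle basement membranes, gave 336, 156 and 294 against 266, 444 and 246, at 0.29 ± 0.36.

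Lamc1, the γ chain of most laminins, gave 222, 184 and 176 in high Fe and 196, 243 and 158 in low Fe, at 0.02 ± 0.19. The less bright Lamc1 probe set, below the filter, gave 86.2, 125.3 and 91.8 against 45.2, 56 and 76.7, lower in low Fe without overlap. Lamb1, the usual β partner of Lamc1, had a signal of 80.2, 99.6 and 68.4 against 141, 136 and 105, just below the filter and not tested. Lama1, an α chain of early basement membranes, gave 87.1, 152 and 134 against 82.8, 34.9 and 20.0 and was not tested either. In both of these dim genes the groups did not overlap, with low Fe above for Lamb1 and below for Lama1.

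Fn1 and Sparc, the adhesive glycoproteins among the members, both lay above 0. Fn1, fibronectin, on which new fibrils are laid down, gave 97.7, 175 and 177 in high Fe and 204, 181 and 219 in low Fe, at 0.43 ± 0.23 (limma, adjusted p = 0.774). The groups did not overlap, but low Fe replicate 2 was only slightly above the upper pair of high Fe samples, and without high Fe replicate 1 the difference was 0.18. Sparc, a collagen-binding protein of matrix assembly, gave 200.2, 45.0 and 246 against 260.5, 222 and 117, at 0.45 ± 0.52. High Fe replicate 2 was far below the rest, and without it the log2 difference was -0.21. The less bright Sparc probe set, below the filter, gave 28.4, 16.1 and 67.7 against 90.9, 97.3 and 101, without overlap.

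A single sample stood low across many members on 230A. On 230A, high Fe replicate 1 was the lowest of the 6 samples in 15 of 29 tested member probe sets (51.7%, against 15.1% of all tested probe sets) and the highest in 0. Its median deviation over the member genes was -0.18 on the log2 scale, and the other 5 samples lay between -0.0015 and 0.08. On 230B the same sample was lowest in 1 of 13 (7.69%, against 14.7%), and its median deviation of 0.21 was the highest of the 6. Low Fe replicates 1 and 3 were the lowest there, at -0.14 and -0.16. High Fe replicate 1 had a GAPDH 5′ to 3′ ratio of 0.811 on 230A, near those of low Fe replicates 2 and 3 (0.807 and 0.794) and below the 0.876 to 0.922 of the other samples. The part of RNA integrity in this pattern was not tested. Without high Fe replicate 1 the median difference of the member genes on 230A was -0.03.

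**Figure D5:**
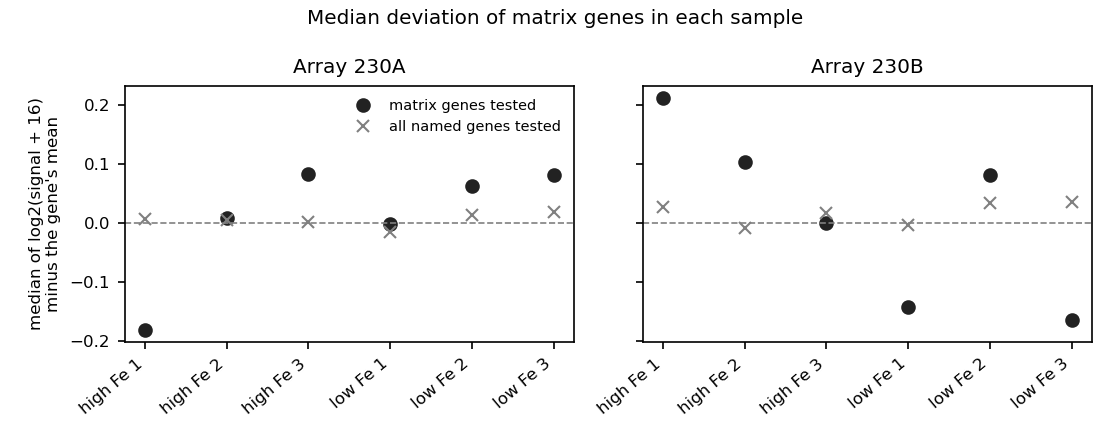
Median over the tested member genes (black circles) and over all tested named genes (grey crosses) of log2(signal + 16) minus each gene's mean (y axis), for each sample on 230A (left) and 230B (right). On 230A only high Fe replicate 1 stands well below 0, at -0.18, and on 230B it is the highest, at 0.21.

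Genes that act with the members were counted from fixed lists. On 230A, 1 of 12 tested genes of collagen maturation and secretion passed, which was P4ha1 (background 0.0945% of probe sets), and the list's median was 0.0021. Tgm2, a transglutaminase that cross-links matrix proteins, had the smallest p after it, at -0.60 ± 0.15, and did not pass (limma, adjusted p = 0.509). Of 13 other matrix glycoproteins and proteoglycans, 12 genes of matrix turnover, 14 matrix receptors and 12 growth factors and signals, 0 passed, with medians of 0.03, -0.08, -0.06 and -0.04. Plaur, the urokinase receptor, lay at 0.71 ± 0.18 (limma, adjusted p = 0.488) and Sdc1, syndecan-1 of the epithelial surface, at 0.60 ± 0.18 (limma, adjusted p = 0.609). Of 11 iron- and copper-requiring partners of the enzymes, P4ha1 was again the 1 that passed, with a median of -0.0089. Egln3, an iron-dependent prolyl hydroxylase that marks HIF for degradation, came next at 0.99 ± 0.14, with groups apart, and just missed the threshold (limma, adjusted p = 0.0548).

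On 230B, 0 genes of these lists passed. Atp7a, the pump that supplies copper to lysyl oxidases, had the smallest p among them, at 1.40 ± 0.19 (limma, adjusted p = 0.139). Itga6, the integrin α chain that binds laminin under epithelial cells, had a mean signal of 7234.3 ± 380.6 in high Fe and 14678.4 ± 2565.7 in low Fe (SD, n = 3), without overlap. Its log2 difference of 1.01 ± 0.16 did not pass (limma, adjusted p = 0.276). Itgb3, a β chain of fibronectin and vitronectin receptors, lay at 1.22 ± 0.34 (limma, adjusted p = 0.454). Itga5, another integrin α chain, lay at -0.38 ± 0.18, lower in low Fe without overlap (limma, adjusted p = 0.503). Of the 8 matrix receptors tested on 230B, 4 lay above 0 and 4 below, with a median of -0.05. The laminin chains measured on the same array, Lama5, Lamc3, Lamb3 and Lama4, lay at -0.69, -0.45, -0.0034 and 0.29.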

How the data were processed

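Expression was measured on Affymetrix rat arrays 230A and 230B, and sample titles give the group. The authors deposited 1 intensity per probe set and array, a scaled linear signal; the software and scaling method are not given in the sources used here. Signals are compared within an array type only. After 57 control probe sets a type were left out, values were transformed as log2(signal + 16), probe sets in the lowest 40% by mean log2 value were left out, and the groups were compared by limma 3.58.1 under R 4.3.3 (lmFit, then eBayes with a trend) over 9519 and 9165 probe sets, with Benjamini-Hochberg adjustment. Folds of dim genes are understated on this scale. For arrays, the number of samples limits the precision. Symbols come from the platform annotation; promoter windows come from RefSeq (GRCr8).

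The members and lists were chosen with earlier results of these data known. Members given by sample were the 6 genes with the smallest unadjusted p in each direction per type, a preset group of well-known members, and others as examples chosen after their values were seen; a gene is given by its brightest probe set. From the other lists up to 3 genes with the smallest p could be named, and the choice among these was made after their values were seen. Alternatives were other pseudocounts, filters, scalings, eBayes settings, blocks and thresholds, the mean of a gene's probe sets and each array left out. The titles number the replicates but do not give the numbers as a pairing, so the main fit used no block. Same-numbered high Fe and low Fe samples did not deviate together (correlations of -0.356, -0.149 and -0.252 on 230A, and -0.265, -0.0993 and -0.166 on 230B). The fit was tested on simulated data.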

Additional observations from a re-analysis of the deposited data

How the results depend on the processing

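The count of members past the adjusted threshold was 0 under each alternative run. Alternatives were run for the 31 members that the naming rule took, and not for others given as examples, such as Col18a1, Col5a2 and Col6a3 on 230A. Over 538 alternative fits of the 31, 497 kept their direction and 41 reversed, and the lowest limma adjusted p was 0.143, that of Col5a1 without low Fe replicate 1. With 3 samples a group and dim signals, differences of the size seen in Sparc, Lama4 or P4ha3 cannot be told from 0.

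Shares of all probe sets past an unadjusted p or without overlap were not computed for the alternatives. The member counts under them are therefore a description and support no call. Without a filter, 7 of 67 member probe sets on 230A were higher and 6 lower at an unadjusted p under 0.05. Of the 67, 7 were higher and 6 lower without overlap, and 0 genes of the other lists passed. On 230B, of 23 member probe sets, 1 was higher at that p, and 1 higher and 2 lower without overlap. With the lowest 60% left out, the 230A counts were 1 higher at that p and 0 higher without overlap, with 2 list genes and a member median of -0.10, and 230B had 0 lower without overlap. Quantile normalization gave 8 higher without overlap and 2 list genes on 230A, and 0 lower without overlap on 230B; P4hb turned to 0.0075 and Col4a1 to 0.0233. A common median gave 8 higher and 2 lower without overlap on 230A, and 0 lower on 230B with medians of 0.0658 for members and 0.13 for all named genes; Col1a1 turned to 0.0027, Col4a1 to 0.0474, Plod3 to 0.0379 and Col16a1 to 0.0479.

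Scaling to the hybridization controls moved the median of all named genes to 0.36 on 230A and 0.19 on 230B, with members at 0.39 and 0.15. On 230A it gave 0 members lower at that p, 7 higher and 0 lower without overlap, and 33 probe sets called; on 230B 1 higher at that p, 0 lower without overlap and 4 called. It reversed Nid2 (0.14), Col2a1 (0.15), P4hb (0.27), Plod2 (0.19), Col1a1 (0.29), Col4a1 (0.33), Plod3 (0.34), Col24a1 (0.017) and Col16a1 (0.11), each below the all-gene shift of its array type.

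The labels do not give the replicate numbers as a pairing; with the replicate block, 0 members were lower at that p on 230A, 4 probe sets were called and 0 list genes passed. A block of the GAPDH ratio sets gave 0 members lower at that p and 14 called on 230A, and 1 lower on 230B, with Col4a1 at 0.0096 and Lamc1 at -0.0256. Robust eBayes gave 2 list genes on 230A. A pseudocount of 64 gave 1 member higher, and eBayes without a trend 1 lower, at that p on 230B. A threshold of 0.1 gave 15 called and 2 list genes on 230A. The mean of all probe sets put Col4a1 at 0.11, P4ha2 at -0.0829 and P4ha3 at -0.33. The causes of these changes were not tested.

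Leaving out each array in turn, on 230A 5 to 21 probe sets were called, 0 to 1 list genes passed, 1 to 4 members were higher and 0 to 2 lower at that p, and 3 to 7 were higher and 1 to 4 lower without overlap. On 230B 0 to 1 members were lower at that p, 1 to 3 were lower without overlap, and the member median ran from -0.20 to 0.0312. The log2 differences that changed sign ran from -0.18 to 0.0376 for Col1a1, -0.19 to 0.14 for Col4a1, -0.0724 to 0.47 for Col4a2, -0.10 to 0.16 for Col6a1, -0.12 to 0.17 for Lamc1, -0.24 to 0.0017 for P4hb, -0.22 to 0.016 for Plod2, -0.0426 to 5e-04 for Plod3 and -0.21 to 0.85 for Sparc. On 230B they ran from -0.22 to 0.0322 for Col16a1, -0.18 to 0.26 for Col17a1, -0.0122 to 0.32 for Col23a1, -0.0274 to 0.49 for Lama4 and -0.24 to 0.44 for P4ha3.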
